A study of Homo sapiens with 6 samples.

Results

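Gene expression in cells given the construct labelled hIMP1 wt was compared with expression in cells given the construct labelled hIMP1 Dmut. The members were the arrays whose sample descriptions name either construct, 2 for each, so 4 of the 6 arrays of the series entered the comparison. All 6 samples came from a human kidney cell line that was transfected, with hIMP1 wt, with hIMP1 Dmut or, for the mock group, with an empty vector, and total RNA of each was hybridised to an Affymetrix oligonucleotide array of its own. The mock arrays are given beside the others as the level without an IMP1 construct. They also entered the offset, the filter and the main limma fit, so their spread is part of the standard errors, intervals and p-values below. Each sample title carries a number, 1 or 2, so that every number holds 1 mock, 1 hIMP1 wt and 1 hIMP1 Dmut array. Below, where a pair of values is given for a group, the array of number 1 comes first.

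The labels name neither the cell line nor what Dmut stands for, nor how long after transfection the RNA was taken, and the treatment field of the Dmut sample of number 1 writes hIMP without its numeral. They do not say whether the numbers are separate cultures, so the spread between arrays of a group may be technical. IMP1, encoded by IGF2BP1, is an RNA-binding protein made in embryonic tissues and in many tumour lines. It binds selected mRNAs through RRM and KH domains and holds them in cytoplasmic granules, where they can be transported, kept from translation or shielded from decay. A comparison of 2 forms of such a protein asks which transcripts differ in amount when the form differs and the transfection is shared.

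Each array gives a linear intensity per probe set, a group of short probes for the same transcript. Array medians lay between 26.7 and 33.7, with the mean, after 2% was trimmed from each end, at 150.02 on every array. An offset of 9.05 was added before taking log2. Differences are hIMP1 wt minus hIMP1 Dmut on that scale, for the 27307 probe sets kept as bright enough. Each is given with the standard error of the limma fit that has a coefficient per group and none for the number. Shifts between the numbers therefore stay in these errors and in the intervals given below, although the numbers are later taken to pair the arrays. The offset makes differences of dim probe sets smaller. Sharing a number went with closer values than sharing a group did. The hIMP1 wt and hIMP1 Dmut arrays correlated at 0.979 within number 1 and at 0.972 within number 2, and arrays of a group correlated at 0.963 to 0.964 between numbers. The Dmut array of number 2 stood somewhat apart: it correlated at 0.970 with the mock array of its number, while the wt and mock arrays of that number correlated at 0.980. Of the cell type markers, 8 of 11 embryonic kidney genes on the array were kept, with summed intensities of 1217 to 1543 over the arrays, and GATA3, PAX8, WT1, HOXD11 and SALL1 were among them. PAX2, LHX1 and OSR1 of the same list were not kept and stayed at or below 40.8, 35.3 and 34.4. By contrast, 2 of 12 markers of the mature nephron were kept. Of the markers of other cells, 3 of 9 blood genes and 4 of 14 endothelial or stromal genes were kept, with sums of 133 to 290 and of 549 to 805. PTPRC of blood and CDH5 of endothelium stayed at or below 17.7 and 5.20, while the kept members were brighter. The kept blood genes CD79A, HBB and CD3E reached 113, 86.9 and 57.1. ACTA2 read 220 to 388 over the arrays and COL1A1 87.2 to 166, and PECAM1 and THY1 reached 60.9 and 43.1. Of the neuronal markers, TUBB3 and NEFL were bright on every array, and 5 of 12 were kept.

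No probe set differed between the constructs after adjustment for the number tested. With limma, 0 were higher with hIMP1 wt (0%) and 0 lower (0%) at an adjusted p under 0.05, and the smallest adjusted p was 1.00. At an unadjusted p under 0.05 there were 102 higher (0.374% of those tested) and 235 lower (0.861%), together 337 where the number of tests alone would give 1365. With 2 arrays a group an exact permutation test cannot give a two-sided p below 0.333, and an unadjusted p of 0.05 in the fit needed a difference of 0.62 at the median standard error. The numbers were taken to pair the arrays, and with the number as a block the counts at an unadjusted p under 0.05 were 318 higher (1.16%) and 552 lower (2.02%), still with 0 at an adjusted p under 0.05. A limma fit of only the 4 arrays compared, with that block, gave 0 higher and 5 lower at an adjusted p under 0.05. It had 1 residual degree of freedom and is described with HSPA6 below.

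The direction of those counts moved with the scaling and with single arrays. Of the probe sets at an unadjusted p under 0.05, 30.3% were higher with hIMP1 wt on the deposited scale, 49.4% after quantile scaling or cyclic loess, and 61.4% when arrays were scaled to a common median, which by itself moved the median difference of all kept probe sets by 0.12. Without the Dmut array of number 2 the counts were 233 higher and 104 lower, without the Dmut array of number 1 they were 341 and 359, and without the wt array of number 1 they were 170 and 736. The mock arrays moved them little, with 107 and 240 without the mock array of number 1. The excess of lower over higher probe sets is therefore given as a count on the deposited scale only.

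Each number gives its own difference between the constructs, and these share no array. Within number 1 the differences had an SD of 0.37, and 2.31% of probe sets were past 1 in either direction, 378 higher and 253 lower with hIMP1 wt. Within number 2 the SD was 0.44 and 4.11% were past 1, 194 higher and 928 lower. Arrays of the same group differed by more: the 2 wt arrays had an SD of 0.50 with 5.22% past 1, and the 2 Dmut arrays 0.48 with 4.57%. Across probe sets the differences of both numbers correlated at a Pearson r of -0.11 and a Spearman rho of -0.13, and 44.2% had the same sign, 5175 higher and 6887 lower within both. These are descriptions across probe sets, which are not independent.

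Differences that repeated were few. Past 1 within both numbers there were 9 probe sets higher with hIMP1 wt (0.033%) and 23 lower (0.0842%), beside 58 past 1 that were higher within number 1 and lower within number 2, and 11 the other way. In 2427 probe sets (8.89%) both wt arrays lay above both Dmut arrays, and in 3580 (13.1%) both lay below. Among the 16439 probe sets with a mean intensity of at least 100, the correlation between numbers was -0.19 and 42.5% had the same sign, so the brighter probe sets did not repeat more often. An example of the opposite kind, chosen after its values were seen, is NCKAP1, a subunit of the WAVE complex that drives actin branching. It stood at 1263 and 668 on the wt arrays and at 602 and 1280 on the Dmut arrays, a difference of 1.06 within number 1 and of -0.93 within number 2.

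**Figure D1:**
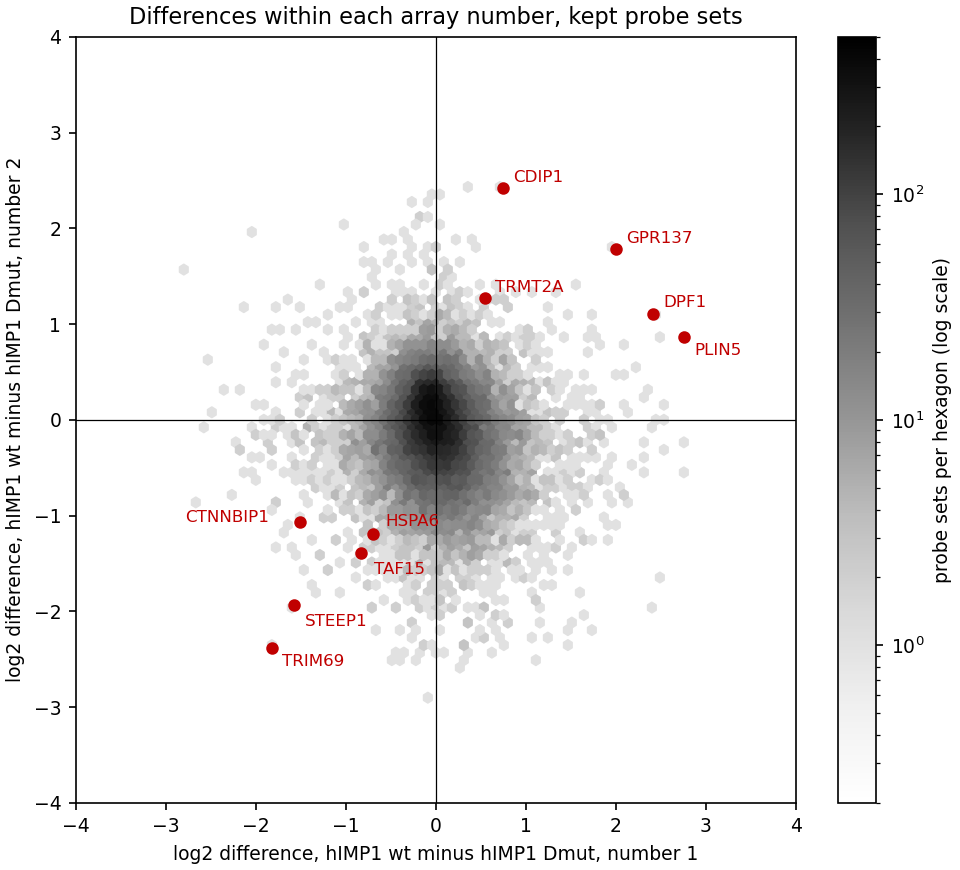
Log2 difference of hIMP1 wt minus hIMP1 Dmut within number 1 (horizontal) against that within number 2 (vertical) for 27307 kept probe sets, shaded by the number of probe sets in each hexagon on a log scale, with 10 genes of the naming rule in red. The cloud slopes slightly downward, with r = -0.11, and the red genes lie at or beyond its edge in the quadrants where both numbers have the same sign, because the rule chose them so.

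The difference also depended on brightness, in opposite ways within the numbers. With the kept probe sets divided by mean brightness into 4 equal bins, the dimmest bin had opposite signs. There the median difference was 0.05 within number 1 and -0.26 within number 2. In the brightest bin it was -0.03 and 0.11. The arrays of number 2 also had the lowest and the highest median of the 6, 26.7 with wt and 33.7 with Dmut. The part of brightness in the gene lists below was not tested beyond the scaling values given there.

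**Figure D2:**
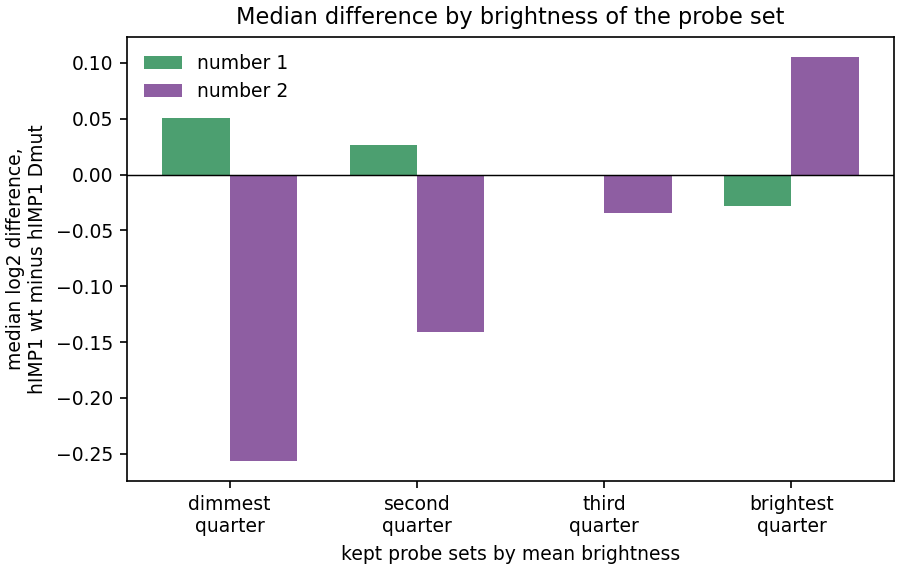
Median log2 difference of hIMP1 wt minus hIMP1 Dmut (vertical) in 4 equal bins of the kept probe sets ordered by mean brightness, with a value for number 1 and a value for number 2 in each bin. Within number 2 the median climbs from -0.26 in the dimmest bin to 0.11 in the brightest, and within number 1 it goes from 0.05 to -0.03.

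Read by their brightest probe sets, the IMP genes showed no difference beyond the spread between arrays. IGF2BP1 stood at 226 and 326 with hIMP1 wt, at 266 and 288 with hIMP1 Dmut and at 231 and 307 in mock. The groups thus overlapped in this probe set, the brighter of its 2. Its difference was -0.02 ± 0.25 (SE, 2 arrays a group), with a 95% interval from -0.57 to 0.52, and it became 0.10 under median scaling. The dimmer probe set of IGF2BP1 read 253 and 137 with wt, 248 and 150 with Dmut and 188 and 93.2 in mock. It differed by -0.05 ± 0.39 between the constructs, and each construct array was above the mock array of its number. Where the probes of IGF2BP1 lie relative to the transfected sequence is not given in the sources used here, so its level does not check either construct. IGF2BP3, the most brightly measured relative, read 1187 and 1279 with wt against 1262 and 1347 with Dmut, a difference of -0.08 ± 0.16 that turned to 0.05 under median scaling and was 0.02 to 0.37 in its other probe sets. IGF2BP2 read 466 and 775 against 544 and 535, with opposite signs within the numbers (-0.22 and 0.53). Its other, dimmer probe set read 97.9 and 85.5 with wt against 78.4 and 62.4 with Dmut, so there the constructs did not overlap. That probe set differed by 0.35 ± 0.29, with 0.29 within number 1 and 0.40 within number 2.

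Transcripts known as IMP1 ligands differed little between the 2 forms when each gene was read by its brightest kept probe set. Of 24 listed target mRNAs 14 were measured, 8 higher and 6 lower with hIMP1 wt, with differences from -0.30 to 0.14, and 0 had an unadjusted p under 0.05 in limma. The median was 0.04, beside -0.01 over all 12269 genes measured, and it was -0.00 after quantile scaling or cyclic loess. ACTB, the beta-actin mRNA whose zipcode IMP1 binds, read 12103 and 13796 with wt and 13338 and 11145 with Dmut, at 0.08 ± 0.18, or -0.0021 after cyclic loess. MYC, whose coding region IMP1 shields from decay, read 1652 and 2242 against 1636 and 2429, at -0.05 ± 0.30, or 0.08 under median scaling. In each of these the groups overlapped.

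Read in the same way, the other targets lay within the same range. PABPC1, the poly(A)-binding protein, was at 0.04 ± 0.20 and CTNNB1, beta-catenin, at 0.04 ± 0.16, and both signs turned after quantile scaling and cyclic loess. HMGA2, a chromatin protein of embryonic cells, was at 0.05 ± 0.18 and LIN28B, which blocks let-7 processing, at 0.14 ± 0.21. BTRC, the beta-TrCP ubiquitin ligase subunit, was at -0.07 ± 0.25, FMR1, an RNA-binding protein of granules, at -0.09 ± 0.17, and CD44, a hyaluronan receptor, at -0.07 ± 0.37, all 3 positive under median scaling. The drug pump ABCB1 was at 0.05 ± 0.26, MAPT, the tau protein, at 0.11 ± 0.28, DLX5, a homeobox factor, at 0.03 ± 0.34, PPP1R9B, the spine protein neurabin-2, at -0.13 ± 0.24 and the kinesin KIF5A at -0.30 ± 0.32. By these probe sets LIN28B and HMGA2 were the only targets higher within both numbers, and KIF5A the only one lower within both. Other kept probe sets of the targets reached further down. They ran from -0.86 to 0.23 for MAPT, from -0.32 to 0.12 for CTNNB1 and from -0.19 to 0.20 for BTRC. That of ABCB1 was at -0.53, that of FMR1 at 0.02, and those of ACTB ran from 0.04 to 0.07.

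HSPA6, a stress-inducible HSP70 chaperone that is silent in unstressed cells, was lower with hIMP1 wt than with hIMP1 Dmut and near background in mock. Its probe set 117_at read 355 and 229 with wt, 582 and 535 with Dmut, and 13.6 and 2.57 in mock, so the 3 groups did not overlap. The difference was -0.94 ± 0.35 (95% interval -1.71 to -0.18), -0.70 within number 1 and -1.19 within number 2. The second, brighter probe set read 646 and 454 against 1033 and 824, with 28.6 and 3.02 in mock, and differed by -0.76 ± 0.44 (interval -1.74 to 0.22). Mock values of either probe set lay far apart on the log2 scale, and that spread is part of its error and interval. In limma the adjusted p was 1.00 for both probe sets. In the fit of only the 4 arrays compared, with the number as a block, it was 0.0436 for 117_at and 0.179 for the second. That fit had 1 residual degree of freedom, to which the prior added 44.9, so its spread is almost wholly borrowed from other probe sets. Probes for HSPA6 may also bind RNA of its near copy HSPA7.

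Other heat shock genes lay on both sides. Of 36 measured, 19 were higher and 17 lower with hIMP1 wt, with 1 higher and 0 lower at an unadjusted p under 0.05 in limma (background above). With the number as a block there were 1 higher, STIP1, and 3 lower, HSPA6, DNAJB1 and BAG3, beside 141 higher and 218 lower of all 12269 genes, and 0 had an adjusted p under 0.05. The median was 0.01, or -0.02 after cyclic loess, 0.14 without the Dmut array of number 1 and -0.07 without that of number 2. DNAJB1, the HSP40 partner of stress-induced HSP70, read 771 and 714 with wt, 1043 and 884 with Dmut and 529.7 and 489 in mock, a difference of -0.37 ± 0.18. Its other kept probe set read 668 and 456 with wt and 857 and 559 with Dmut, so there the constructs overlapped, at -0.32 ± 0.26. Within both numbers the wt array was lower for HSPA6, DNAJB1, BAG3, DNAJB4 and BAG5, and higher for STIP1, SERPINH1, CDC37, HSPB1 and BAG2; these members are named after their values were seen. BAG3, an HSP70 co-chaperone, lay at -0.23 and -0.48 within the numbers and each array of either construct was above the mock array of its number.

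STIP1, the HOP co-chaperone that joins HSP70 and HSP90, was the heat shock gene with the smallest unadjusted p. It read 1682 and 1971 with wt, 1311 and 1217 with Dmut and 1609 and 1560 in mock, with both wt arrays above and both Dmut arrays below mock. Its difference was 0.52 ± 0.17. CDC37, which brings kinases to HSP90, was at 0.28 ± 0.19. Among all heat shock genes the median was -0.09 within number 1 and 0.18 within number 2, so the list as a whole turned between the numbers.

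The promoters of HSPA6 and DNAJB1 are shown because these were the heat shock genes of the naming rule that were lower with hIMP1 wt within both numbers, each standing above mock with both constructs. Heat shock factor binds inverted repeats of GAA, and capitals mark matches to GAANNTTC or TTCNNGAA, which read alike on both strands and may overlap. Both are the 250 bases before a RefSeq gene start (GRCh38.p14), printed 5′ to 3′ on the strand of the gene. The first is chr1:161524290-161524539 on the plus strand and the second chr19:14518398-14518647 on the minus strand, which is the only one of 3 starts listed for DNAJB1 with a match.
HSPA6: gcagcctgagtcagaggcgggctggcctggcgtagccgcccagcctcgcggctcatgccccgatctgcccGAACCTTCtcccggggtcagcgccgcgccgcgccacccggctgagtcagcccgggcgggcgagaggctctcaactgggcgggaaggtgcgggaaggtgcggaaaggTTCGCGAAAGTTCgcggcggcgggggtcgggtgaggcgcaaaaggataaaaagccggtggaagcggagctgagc
DNAJB1: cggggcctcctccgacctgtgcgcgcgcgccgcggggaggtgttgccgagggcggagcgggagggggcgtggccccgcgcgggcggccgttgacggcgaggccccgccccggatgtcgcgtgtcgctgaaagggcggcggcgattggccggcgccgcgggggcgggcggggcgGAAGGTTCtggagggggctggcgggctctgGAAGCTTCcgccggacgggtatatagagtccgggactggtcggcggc

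The HSPA6 window holds 2 matches to GAANNTTC and 1 to TTCNNGAA; the match to TTCNNGAA overlaps the GAANNTTC nearer to the gene start, and the other GAANNTTC lies apart upstream. The DNAJB1 window holds 2 to GAANNTTC. The 250-base windows listed for STIP1 and CDC37, the members of the rule that were higher with hIMP1 wt, hold none. The starts listed are 3 for DNAJB1, 2 for STIP1 and 1 each for HSPA6 and CDC37. Other heat shock genes, BAG3 among them, were not looked up, and whether matches go with the direction of a difference was not tested. Of 35116 windows of this length in the table, 5.78% hold GAANNTTC, 6.62% hold TTCNNGAA and 11.6% hold either. A match describes the letters of the window and is not evidence of binding in these cells.

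TAF15, an RNA-binding protein and a partner of the general transcription factor TFIID, was lower with hIMP1 wt in 1 of its 3 kept probe sets. It read 299.6 and 212 with hIMP1 wt, 540.1 and 569.9 with hIMP1 Dmut and 522 and 432 in mock. Both wt arrays were below every other array, and both Dmut arrays lay a little above both mock arrays. The difference was -1.11 ± 0.22 (interval -1.60 to -0.62), -0.83 within number 1 and -1.39 within number 2. Its adjusted p in limma was 1.00, 0.567 with the number as a block, and 0.00467 in the blocked fit of 4 arrays described for HSPA6. The other 2 kept probe sets of TAF15 did not follow. The first read 93.6 and 110.1 with wt against 95.6 and 135 with Dmut (-0.15 ± 0.28), and the other differed by -0.07.

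STEEP1, which helps STING leave the endoplasmic reticulum, was the other named gene below 0.05 in that 4-array fit. It read 42.6 and 33.9 with wt, 145 and 155 with Dmut, and 78.8 and 34.96 in mock, a difference of -1.75 ± 0.36. Here the Dmut arrays were the high ones and mock lay nearer to wt. Its adjusted p was 1.00 in limma, 0.947 with the block over 6 arrays and 0.00467 in the blocked fit of 4. Its other probe set differed by -0.38. The 4-array fit made 5 calls, all lower with hIMP1 wt: HSPA6, TAF15, STEEP1 and 2 probe sets that have no single gene symbol.

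**Figure D3:**
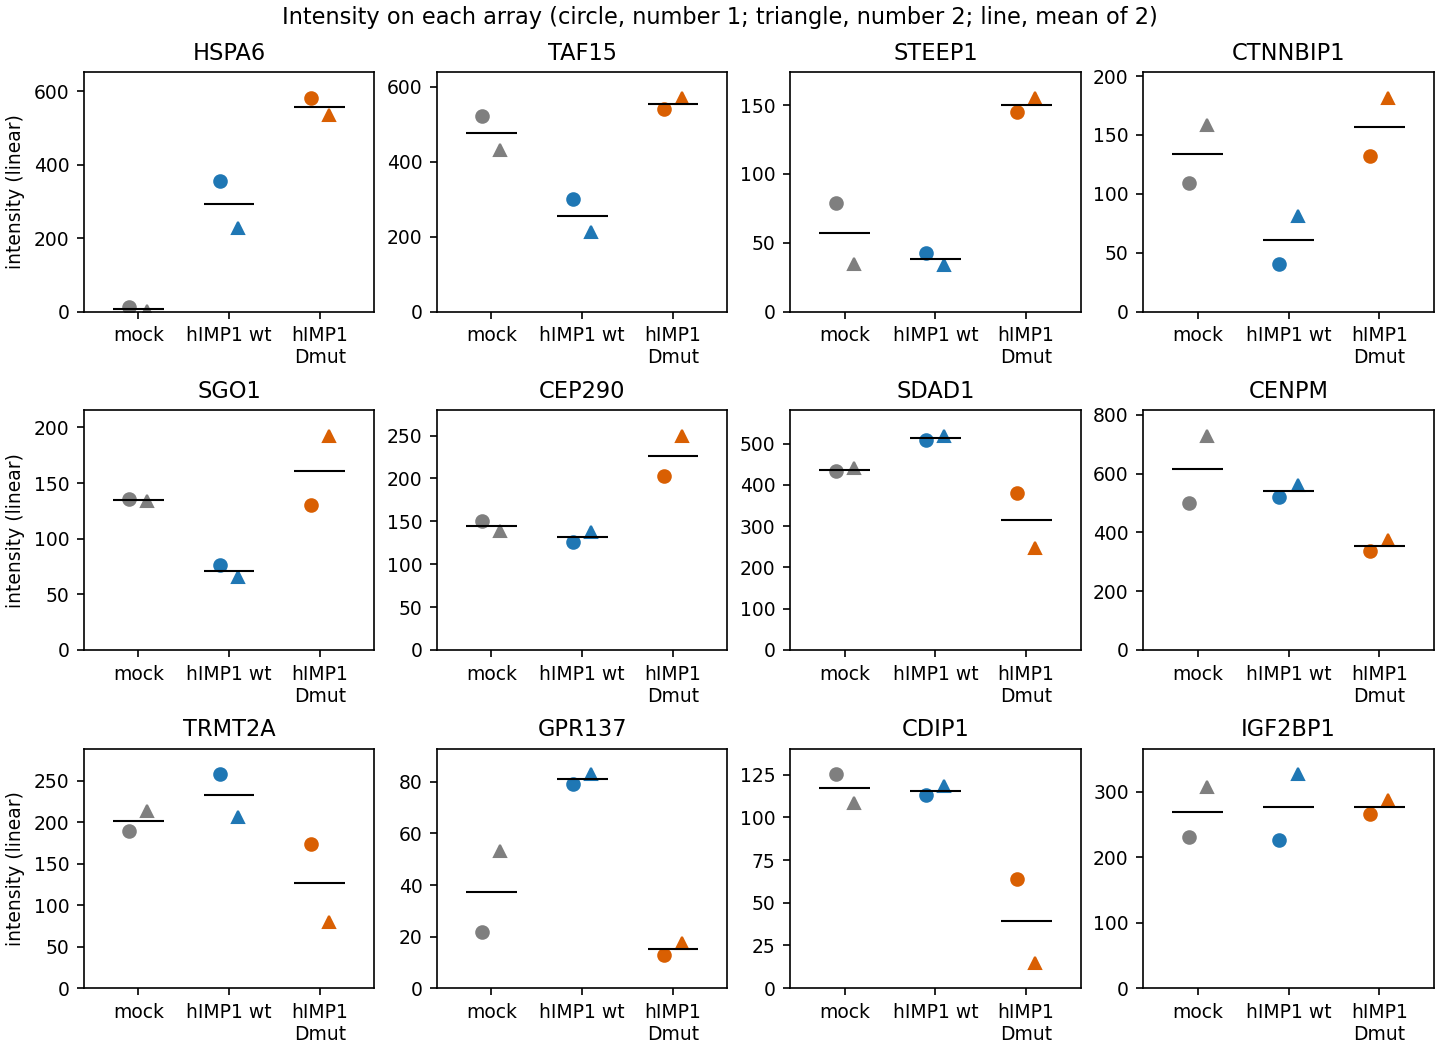
Deposited intensity (linear, from 0) of 12 genes on each of the 6 arrays, with circles for number 1, triangles for number 2 and a line at the mean of the 2 arrays of a group. HSPA6 (117_at) is near 0 in mock and higher with hIMP1 Dmut than with hIMP1 wt, TAF15 and SGO1 are low with wt alone, CENPM and CDIP1 are low with Dmut alone, and the groups of IGF2BP1 overlap.

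Among other genes of smallest unadjusted p that were lower with hIMP1 wt, the wt arrays were often the ones that stood apart from mock. SGO1, shugoshin, which protects centromeric cohesion, read 76.0 and 65.2 with wt, 130.3 and 192 with Dmut and 136 and 134 in mock, at -1.08 ± 0.27; its other probe set was at 0.08. CTNNBIP1, which keeps beta-catenin from TCF, read 40.4 and 81.7 against 132 and 181, with 109 and 158 in mock, at -1.29 ± 0.35. In both genes the wt and Dmut arrays did not overlap, which the choice by small p favours, and mock lay within or near the range of Dmut.

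Dimmer genes with that pattern were TRIM69, a ubiquitin ligase, at -2.10 ± 0.39, MYL4, the atrial light chain of myosin, at -1.49 ± 0.33, ST6GALNAC6, a sialyltransferase, at -1.40 ± 0.38, and DMWD at -1.51 ± 0.43. TRIM69 read 10.1 and 4.51 with wt against 58.6 and 61.5 with Dmut, near the offset on the wt side. The other kept probe sets of TRIM69 and MYL4 had the opposite sign, at 0.04 and from 0.07 to 0.41. ACTC1, cardiac actin, read 28.9 and 22.9 against 83.8 and 78.3, with 40.5 and 54.7 in mock between them, at -1.37 ± 0.33. In RSBN1L the Dmut arrays stood apart instead, at 104 and 108 beside 42.6 and 39.0 with wt and 41.9 and 40.3 in mock, a difference of -1.20 ± 0.30, with its 3 other probe sets between -0.22 and -0.06. All 8 had an adjusted p of 1.00 in limma, without and, except CTNNBIP1 at 0.947, with the block.

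The genes of at least 100 mean intensity whose smaller within-number difference was largest added 7 that were lower with hIMP1 wt, HSPA6 among them. CEP290, a protein of the ciliary transition zone, read 126 and 138 with wt, 203 and 249 with Dmut and 150.2 and 139 in mock, at -0.73 ± 0.23. PPP3R1, the regulatory subunit of calcineurin, read 115 and 109.8 against 190.3 and 212, at -0.79 ± 0.40. Its mock arrays, 205 and 69.1, spanned both groups, and that spread is part of the error. VANGL1, a planar cell polarity protein, read 100.1 and 131 against 166 and 209.8, at -0.66 ± 0.25. For CEP290 and VANGL1 the mock arrays lay nearer to wt than to Dmut.

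The remaining 3 of these were ZNF207, a kinetochore protein that binds BUB3, at -0.85 ± 0.30, FBXW11, a beta-TrCP relative, at -0.67 ± 0.28, and FAXDC2 at -0.72 ± 0.37. FAXDC2 read 191 and 118 with wt and 327 and 197 with Dmut, so the wt array of number 1 and the Dmut array of number 2 nearly met. Of 7 other probe sets of ZNF207, 4 had the opposite sign, up to 0.29.

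Among genes higher with hIMP1 wt, the Dmut arrays were often the ones away from mock. SDAD1, a nucleolar factor of 60S ribosome export, was the brightest of the 10 with the smallest unadjusted p. It read 509 and 519 with wt, 381 and 247 with Dmut and 434 and 441 in mock, a difference of 0.73 ± 0.23, with 2 other probe sets at -0.29 and -0.07. CDIP1, a p53-linked death-inducing protein, read 113 and 118 with wt, 63.8 and 14.8 with Dmut and 125 and 109 in mock, at 1.58 ± 0.45, and its other probe set was at 0.26. In both genes each Dmut array lay below all others.

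GPR137, a lysosomal membrane protein, differed by 2.00 within number 1 and 1.79 within number 2. It read 79.2 and 83.0 with wt, 13.0 and 17.6 with Dmut and 21.8 and 53.1 in mock, at 1.89 ± 0.41, while its other probe sets ran from -0.01 to 0.21. DPF1, a BAF complex subunit of neurons, was at 1.76 ± 0.44 and PLIN5, a lipid droplet protein, at 1.81 ± 0.49. NEU3, the membrane sialidase, was at 1.33 ± 0.39, UNKL, a zinc finger protein, at 1.42 and 0.81 within the numbers, ALOX12-AS1 at 1.35 ± 0.37, SHISAL1 at 1.39 ± 0.44 and ZNF169 at 1.25 ± 0.39. The Dmut values of these 7 lay between 4.77 and 42.7. Other probe sets of PLIN5, NEU3, SHISAL1 and ZNF169 had the opposite sign, from -0.70 to -0.02. ALOX12-AS1 is antisense to its neighbour, and its probes may read either strand.

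Of the brighter genes chosen by their smaller within-number difference, CENPM, a constitutive centromere protein, had nearly equal values within the numbers. It read 519.6 and 559.9 with wt, 338 and 373 with Dmut and 500.4 and 727 in mock, at 0.59 ± 0.22, with 0.61 within number 1 and 0.58 within number 2. TRMT2A, a tRNA methyltransferase, read 258 and 207 against 174 and 80.2, at 0.91 ± 0.33, and GRK6, a receptor kinase, 227 and 183 against 138 and 97.6, at 0.77 ± 0.28. In all 3 both Dmut arrays lay below both mock arrays. The other probe sets of GRK6 ran from -0.24 to 0.40.

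TATDN3 was at 0.66 ± 0.23, RILPL1, a ciliary membrane regulator, at 0.67 ± 0.24, LRCH3 at 0.67 ± 0.33, HMG20B, a subunit of the CoREST complex, at 0.65 ± 0.34, ZNF521 at 0.61 ± 0.29, HYPK, a partner of the N-terminal acetyltransferase NatA, at 0.60 ± 0.28 and GPATCH1 at 0.55 ± 0.26. HMG20B read 292 and 456 with wt against 189 and 278 with Dmut, so the wt array of number 1 and the Dmut array of number 2 were separated by little. In GPATCH1 the wt arrays stood apart from mock instead, at 322 and 225 beside 213 and 153 with Dmut and 196 and 167 in mock. Other probe sets of TATDN3, ZNF521, GRK6 and LRCH3 had the opposite sign, for LRCH3 in 4 of 5 down to -1.02.

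Gene lists were read by the brightest kept probe set of each gene, against all 12269 genes, of which 47.6% were higher with hIMP1 wt, 19.1% within both numbers, and 23.8% were lower within both. No member of any list passed an adjusted p of 0.05 in limma over all 6 arrays. With the number as a block in limma, 141 of all 12269 genes were higher and 218 lower at an unadjusted p under 0.05. Members higher at that level were 3 of 67 in oxidative phosphorylation, 2 of 46 in mitosis and 2 of 27 in lipid synthesis. Also higher were 1 of 33 unfolded protein response, 2 of 30 TGF-beta and activin and 1 of 23 oxidative and metal stress genes. Members lower were 2 of 34 immediate early, 2 of 8 histone, 1 of 46 Golgi and 1 of 39 lysosome genes. So were 1 of 33 adhesion and matrix genes and 1 of 8 nuclear long non-coding RNAs. Among 38 RNP granule proteins 2 were higher and 1 lower. Of 54 DNA replication genes and of 26 actin cytoskeleton genes, 1 each was higher and 1 lower. Apart from the heat shock genes given above, the remaining lists had none. The first 6 lists below are not the only ones whose median lay on the same side of 0 within both numbers. Actin cytoskeleton (0.01 and 0.16), DNA replication (0.0072 and 0.04) and ATF4 amino acid response genes (-0.07 and -0.05) did so too, as did the proteasome, interferon and lysosome lists given further on.

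Genes of the unfolded protein response, which enlarges the folding capacity of the endoplasmic reticulum, were mostly a little higher with hIMP1 wt. Of 33 measured, 25 were higher, 17 of them within both numbers and 3 lower within both, and the median was 0.10 in the fit, 0.06 within number 1 and 0.14 within number 2. PDIA4, a disulfide isomerase, read 823 and 849 with wt, 625 and 581 with Dmut and 573 and 810.2 in mock, at 0.47 ± 0.20. WFS1, a calcium regulator of the endoplasmic reticulum, read 179.6 and 180.1 against 141 and 122, at 0.43 ± 0.24, and CRELD2 read 777 and 936 against 644 and 687, at 0.35 ± 0.27. In each of these both wt arrays lay above both Dmut arrays, which the choice by a large statistic favours.

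XBP1, the transcription factor spliced by IRE1, ran against the list at -0.25 ± 0.20, mainly within number 2 (-0.50). HSPA5, the chaperone BiP, was at 0.20 ± 0.27 and read 4865 and 3395 with wt against 4515 and 2771, with 3533 and 2575 in mock. The list's median without the Dmut array of number 2 was 0.02, with 18 of 33 higher, and 0.06 after quantile scaling. Under median scaling its value within number 1 was -0.01, beside -0.08 for all genes.

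Cholesterol and fatty acid synthesis, the SREBP-controlled lipid pathway, showed the same lean. Of 27 genes measured, 24 were higher, 15 within both numbers and 0 lower within both, with a median of 0.12 in the fit, 0.08 within number 1 and 0.17 within number 2. FASN, fatty acid synthase, read 898 and 953 with wt, 781 and 603 with Dmut and 663 and 802 in mock, at 0.43 ± 0.20. NSDHL, a sterol dehydrogenase, read 448 and 473 against 362 and 365, at 0.33 ± 0.18, and ELOVL6, a fatty acid elongase, 313 and 333 against 271 and 266, at 0.26 ± 0.20. In all 3 the wt and Dmut arrays did not overlap, which the choice by a large statistic favours. MVD, a mevalonate pathway decarboxylase, had the largest difference (0.78 ± 0.62), which rested on the Dmut array of number 2, at 2.88 beside 47.6 on that of number 1. The list's median was -0.01 without the wt array of number 2 and -0.0015 without the Dmut array of number 1, against 0.29 without the wt array of number 1 and 0.24 without the Dmut array of number 2.

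Immediate early genes, which answer growth signals and stress within minutes, were mostly lower with hIMP1 wt. Of 34 measured, 28 were lower, 18 within both numbers and 3 higher within both, with a median of -0.11, -0.13 within number 1 and -0.12 within number 2. EGR1 read 381 and 160 with wt, 419 and 393 with Dmut and 250.4 and 139 in mock, at -0.69 ± 0.38. EGR4, at 26.5 and 4.40 against 48.7 and 42.2, differed by -1.31 ± 0.48, NR4A3, an orphan nuclear receptor, by -0.57 ± 0.40 and EGR3 by -0.69 ± 0.48. FOS lay at -0.38 and -0.46 within the numbers. EGR4, EGR3 and NR4A3 were dim, at mean intensities of 34.3, 36.5 and 30.7. The median intensity was 187 over the list beside 237 over all genes. The list's median became 0.01 under median scaling, where that of all genes was 0.11, and it was -0.02 without the wt array of number 2, -0.03 without the Dmut array of number 1 and -0.21 without either of the others of these 2 groups.

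**Figure D4:**
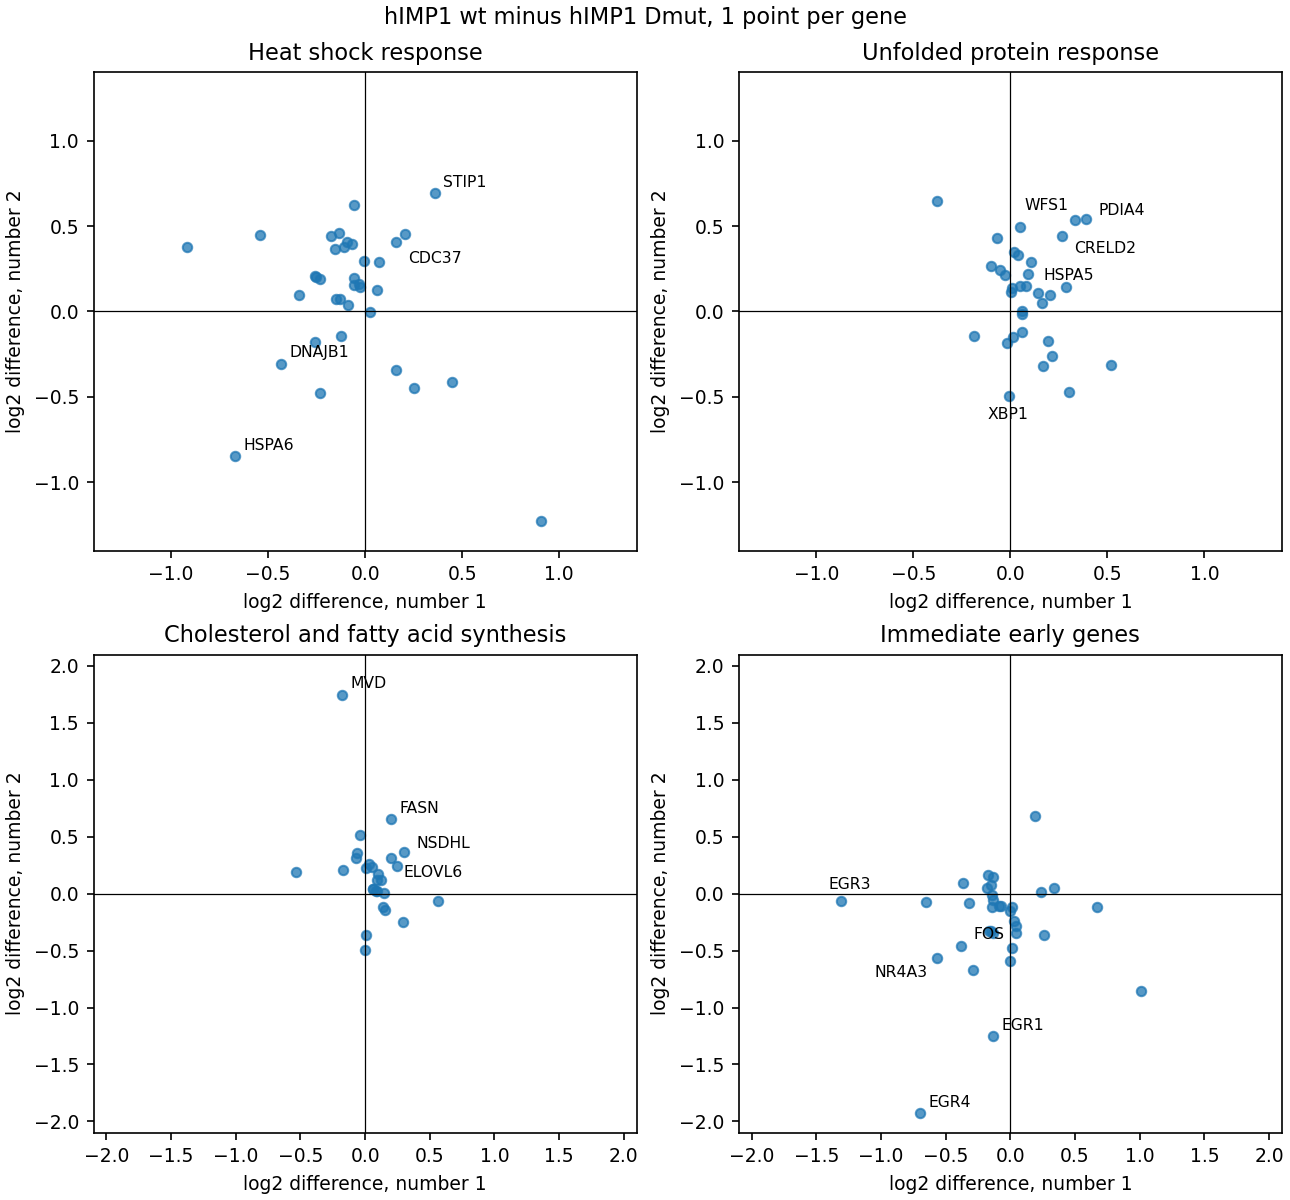
Log2 difference of hIMP1 wt minus hIMP1 Dmut within number 1 (horizontal) against number 2 (vertical) for each measured gene of 4 lists, 1 point per gene, with the axes of the lower panels wider. Heat shock genes spread to both sides with HSPA6 low in both, 17 of 33 unfolded protein response and 15 of 27 lipid synthesis genes are above 0 on both axes, and 18 of 34 immediate early genes are below 0 on both.

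Targets of p53 leaned the same way as the immediate early genes. Of 22 measured, 18 were lower with hIMP1 wt, 9 within both numbers and 1 higher within both, with a median of -0.11 (-0.08 and -0.13 within the numbers), or 0.02 under median scaling, -0.04 without the Dmut array of number 2 and -0.21 without that of number 1. BAX, a mitochondrial death effector, read 249.97 and 251 with wt and 378 and 454 with Dmut, at -0.71 ± 0.45, though mock spanned both groups at 399 and 108. That mock spread is part of the error of BAX. MDM2, the ligase that degrades p53, read 978 and 848 against 1043 and 1174, at -0.28 ± 0.19. POLH, a translesion polymerase, was at -0.32 ± 0.26 and PHLDA3, an AKT inhibitor, at -0.22 ± 0.24.

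Of NF-kB genes and cytokines, 9 of 27 were measured and 7 were lower, 5 within both numbers, with a median of -0.30 at a median intensity of 80.3. CXCL8, a neutrophil chemokine, read 34.2 and 16.4 with wt against 46.9 and 39.8, at -0.66 ± 0.43. NFKB2 was at -0.45 ± 0.37, LIF at -0.90 ± 0.66 and RELB at -0.49 ± 0.45, with LIF carried by the wt array of number 1 at 3.54. The list's median was 0.01 with the filter set at the 75th percentile and -0.13 without the wt array of number 2. Of 8 measured histone genes 6 were lower, 5 within both numbers, with a median of -0.19, which was 0.04 without the Dmut array of number 1, -0.02 without the wt array of number 2, -0.46 without the wt array of number 1 and -0.59 without the Dmut array of number 2.

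**Figure D5:**
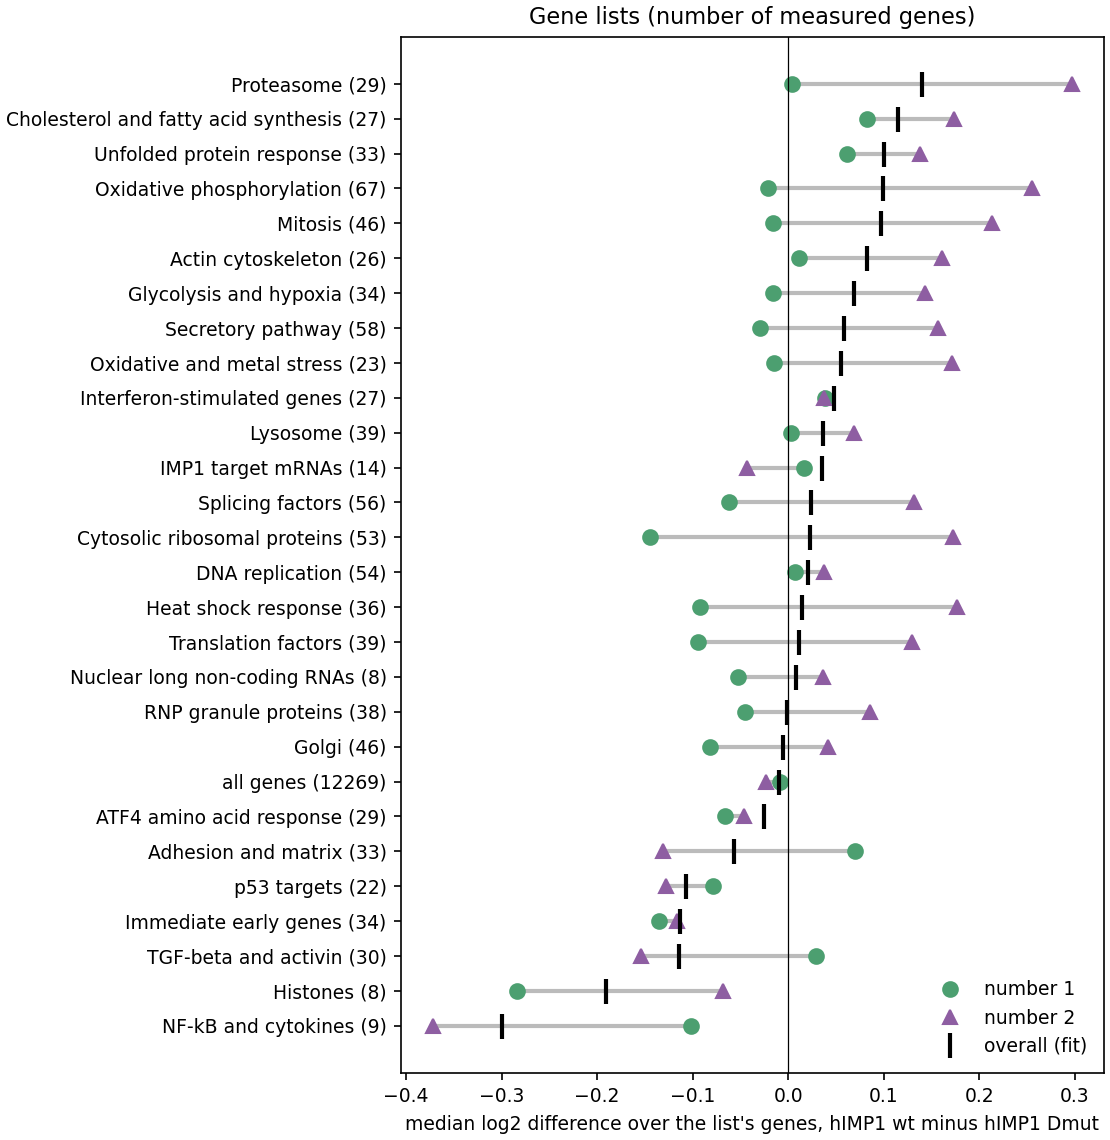
Median log2 difference of hIMP1 wt minus hIMP1 Dmut over the measured genes of each list (number in brackets), within number 1 (circle), within number 2 (triangle) and in the fit (bar), with all genes as 1 line. Unfolded protein response and lipid synthesis are right of 0 and immediate early, p53, NF-kB and histone genes left of 0 in both numbers, while proteasome, oxidative phosphorylation, mitosis and ribosomal protein genes lie well to the right within number 2 only.

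Lists of bright housekeeping genes differed between the numbers, as the brightness bins did. All 29 measured proteasome genes were higher with hIMP1 wt in the fit, with a median of 0.14, but the median was 0.0041 within number 1, where 15 were higher, and 0.30 within number 2, where all 29 were. After cyclic loess or quantile scaling 26 were higher, with a median of 0.08, and without the wt array of number 2 the median was 0.05 with 22 higher, against 0.24 without that of number 1 and 0.09 without the Dmut array of number 2. PSMD6, a lid subunit, read 2775 and 3416 with wt against 2747 and 2351, at 0.28 ± 0.18. PSMD1, the base scaffold, was at 0.27 ± 0.20, PSMD3 at 0.25 ± 0.20 and the core subunit PSMA5 at 0.23 ± 0.21.

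Of 67 oxidative phosphorylation genes, 59 were higher, with a median of 0.10, at -0.02 within number 1 and 0.25 within number 2, and it was 0.03 after quantile scaling, -0.06 without the wt array of number 2 and 0.29 without that of number 1. NDUFA1, of complex I, was higher within both numbers (0.30 and 0.50) at 0.40 ± 0.25, as was ATP5F1D, of the ATP synthase, at 0.38 ± 0.23. UQCR10, of complex III, was at 0.28 ± 0.18, and UQCRC1, of the same complex, at 0.35 ± 0.23, almost all of it within number 2 (0.70). Cytosolic ribosomal proteins had a median of 0.02 that came from -0.14 within number 1 and 0.17 within number 2, with 4 and 49 of 53 genes higher, and the median was -0.06 after cyclic loess. Without each array of these groups in turn it ran from -0.10 (wt of number 2) to 0.15 (wt of number 1). RPL8 was at 0.19 ± 0.21 and FAU at 0.13 ± 0.20. RPLP2 and RPL36A, at 0.21 ± 0.32 and -0.20 ± 0.37, were read by probe sets of under 60 in intensity.

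Mitosis genes had a median of 0.10, with 35 of 46 higher, at -0.02 within number 1 and 0.21 within number 2. The median was 0.30 with 42 higher without the wt array of number 1, 0.01 with 24 higher without the Dmut array of number 1, -0.09 with 12 higher without the wt array of number 2 and 0.16 without the Dmut array of number 2. PLK1, the polo kinase, read 394 and 467 with wt and 392 and 235 with Dmut, so its 0.48 ± 0.26 lay within number 2. KIF20A, a cytokinesis kinesin, was at 0.44 ± 0.30, ESPL1, separase, at 0.33 ± 0.26 and ECT2, which starts cleavage furrowing, at -0.26 ± 0.19. Secretory pathway genes had a median of 0.06 (-0.03 and 0.16 within the numbers), or 0.13 without the Dmut array of number 1, 0.0013 without that of number 2 and 0.02 without the wt array of number 2, with DAD1, of the oligosaccharyltransferase, at 0.33 ± 0.20, the SRP receptor subunit SRPRA at 0.25 ± 0.20, and the COPII coat genes SEC23A and SEC24A at -0.34 ± 0.22 and -0.28 ± 0.26.

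RNP granule proteins, the company IMP1 keeps in the cytoplasm, divided evenly, 19 higher and 19 lower of 38, with a median of -0.00, from -0.07 without the Dmut array of number 2 to 0.11 without that of number 1. Beside TAF15, PATL1, a decapping activator of P-bodies, read 252 and 409 with wt against 172 and 262 with Dmut, at 0.58 ± 0.28. SYNCRIP, an hnRNP found in IMP1 granules, was at 0.31 ± 0.18, and TNRC6B, a partner of Argonaute, at -0.32 ± 0.23. Golgi genes were also even, 20 of 46 higher with a median of -0.01, or 0.12 under median scaling, -0.08 without the Dmut array of number 2 and 0.02 without that of number 1. Among them were the golgin TRIP11 at -0.67 ± 0.28, ST3GAL1 at -0.89 ± 0.51, COG8 at -0.46 ± 0.27 and GCC1 at -0.36 ± 0.25.

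Of 39 lysosomal genes 22 were higher, with a median of 0.04, from -0.02 without the Dmut array of number 1 to 0.09 without the wt array of number 1. CLN3, a lysosomal membrane protein, read 155 and 144 with wt against 221 and 215, at -0.52 ± 0.25, and MCOLN1, a lysosomal calcium channel, read 116 and 92.3 against 77.7 and 61.9, at 0.52 ± 0.27. The proton pump subunit ATP6V1E1 was at 0.27 ± 0.17 and the protease CTSZ at -0.40 ± 0.28. Interferon-stimulated genes split 15 higher and 12 lower, with a median of 0.05, from -0.11 without the wt array of number 2 to 0.19 without that of number 1. Among them were OASL at 0.53 ± 0.35, UBE2L6 at 0.60 ± 0.41, USP18 at 0.28 ± 0.23 and IRF1 at -0.39 ± 0.32. In CLN3 and MCOLN1 both wt arrays lay on the same side of both Dmut arrays, as they did in OASL, IRF1 and USP18, while UBE2L6 overlapped. The choice of these members by a large statistic favours such separation.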

How the data were processed

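The deposited table holds 1 intensity for each of 54675 probe sets and 6 arrays on a linear scale. How the authors summarised and scaled the probes is not stated in the labels or file header. Apart from 62 controls, values entered as log2(intensity + 9.05), the offset being the lower quartile of all values, and the 27307 of 54613 probe sets at or above the median mean log2 (5.19) were kept. Symbols came from the platform's annotation table: 41091 probe sets had 1 symbol, 1801 several and 11721 none, and only the first were named. Of them, 41037 matched RefSeq genes (GRCh38.p14).

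Groups came from the sample descriptions and numbers from the titles. limma 3.58.1 in R 4.3.3 (lmFit, eBayes with an intensity trend, two-sided, Benjamini-Hochberg) was fitted to all 6 arrays with a coefficient per group, leaving 3 residual degrees of freedom and a prior of 7.03. Same-numbered arrays deviated together from their group means. The correlations across probe sets were 0.46 (mock and wt), 0.20 (mock and Dmut) and 0.22 (wt and Dmut). Since all exceeded 0.1, the numbers were taken as pairs, and fits with the number as a block are given beside the first. The standard errors and intervals printed are those of the fit without the block.

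Named genes were, per direction, the 10 of smallest p, and the 10 with the largest smaller within-number difference of like sign at a mean intensity of at least 100, plus the IMP genes, IMP1 targets and the 4 members with the largest moderated statistic of each list described by its members. The comparison, its members and the 33 gene lists were chosen with earlier results of these data known. Alternatives covered scaling, offset, filter, block, arrays fitted, the variance prior, each array left out and the mean of a gene's probe sets.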

Additional observations from a re-analysis of the deposited data

How the results depend on the processing

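With 2 arrays a group, the precision is limited by the number of arrays, and groups of this size are too small for a test of outlying arrays. Counts at an adjusted p under 0.05 stayed at 0 in both directions under every alternative except the 4 arrays compared with the replicate block, which gave 0 higher and 5 lower. Counts at an unadjusted p under 0.05, 102 higher and 235 lower as reported, moved past 1.5 times to 161 higher under quantile scaling and 161 under cyclic loess, 218 and 137 under median scaling, 640 and 962 without a filter, 39 and 43 with the filter at the 75th percentile, 318 and 552 with the replicate block over 6 arrays, 293 and 615 with the replicate block over 4, and, for lower, 414 without the intensity trend. Leaving out each array in turn gave 99 to 341 higher and 104 to 736 lower. The correlation between the within-number differences was -0.10 under quantile scaling, -0.0942 under cyclic loess, -0.13 with the offset at the median, -0.0572 without a filter and -0.20 with the stricter filter. The share of the same sign was 45.2%, 38.3% and 45.7% under quantile, median and cyclic loess scaling, 46.3% without a filter and 41.7% with the stricter one. The causes were not tested.

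Of 122 named probe sets under 18 alternatives, 96 kept their direction throughout. Many of them were chosen on these data by small p, by like sign within both numbers or by a large statistic. That choice favours a kept direction, so the count does not measure how well differences would repeat. The sign turned under quantile scaling for CD44 (0.0319), CTNNB1 (-0.0205) and PABPC1 (-0.0435), under cyclic loess for ACTB (-0.0021), CD44 (0.0265), CTNNB1 (-0.0055) and PABPC1 (-0.0329), and under median scaling for BTRC (0.0547), CD44 (0.0273), FMR1 (0.0408), IGF2BP1 (0.10), IGF2BP3 (0.0483) and MYC (0.0790). When each array was left out in turn, 25 turned, over these ranges: ABCB1 -0.22 to 0.33, ACTB -0.0457 to 0.21, BAG2 -0.0055 to 0.19, BTRC -0.23 to 0.0860, CD44 -0.30 to 0.15, CTNNB1 -0.0390 to 0.12, DLX5 -0.43 to 0.49, EGR3 -1.41 to 0.0416, FAU -0.0469 to 0.30, FMR1 -0.21 to 0.0355, HMGA2 -0.0784 to 0.18, HSPA5 -0.15 to 0.55, HSPB1 -0.16 to 0.52, IGF2BP1 -0.28 to 0.23, IGF2BP2 -0.21 to 0.51, LIF -2.07 to 0.26, MAPT -0.13 to 0.34, MVD -0.34 to 1.91, MYC -0.33 to 0.23, NCKAP1 -0.47 to 0.60, PABPC1 -0.14 to 0.22, PPP1R9B -0.29 to 0.0247, RELB -1.07 to 0.0905, RPL36A -0.47 to 0.0743 and SEC24A -0.60 to 0.0301. Of 625 list medians under the alternatives, 554 moved by less than the spread between the numbers and 71 by more.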
